A study of Capra hircus with 6 samples.

Results

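Circular RNAs (circRNAs) are loops made when a splice donor joins a splice acceptor that lies upstream of it, and each is recognised by reads across that back-splice junction. The circRNAs described here are those annotated to 5 genes of the bone morphogenetic protein (BMP) and transforming growth factor beta (TGF-beta) pathways. For these genes, circRNAs were taken by the gene identifier in the deposited annotation alone: 100861211 (BMPR1B), 100861241 (BMPR1A), 100860793 (BMP6), 102176988 (SMAD1) and 100861300 (TGFBR2). The genes themselves were chosen with earlier results of these data known. The rule found 18 distinct circRNAs (1 circRNA is 1 chromosome, start, end and strand) of 13950, in 39 of 28870 entries. They held 265 of 252857 back-splice junction reads, or 0.105%.

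Each library was made from the ovarian follicle tissue of 1 goat (Capra hircus), with 3 goats of the Boer breed and 3 of the Macheng black breed. All 6 animals had normal estrous cycles and received 1000 IU of PMSG and 500 IU of hCG, gonadotropins that drive follicle growth and trigger ovulation, so no untreated goat enters the comparison. Total RNA was depleted of ribosomal RNA, and no step that enriches circular RNA is named in the labels. Whole follicles hold several cell types, and in such bulk samples fewer cells of a type and less RNA per cell cannot be told apart.

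Libraries held between 23480 and 74796 junction reads over 3347 to 7005 circRNAs. No table lists a circRNA with under 2 junction reads, so "not listed" below means at most 1 read or not found by the caller. In 1 library, Boer 2, the sample code in the labels and that of the deposited table differ in the last digit. None of 30 marker genes of granulosa, theca, oocyte or other cells was among the usable host genes, so the labelled tissue could not be checked from these tables. Positions are counted from 1 on the build of the deposited tables, which is not given in the sources used here. No sequence of these loci was in the files used here, so none is shown.

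BMP ligands such as BMP6 bind a pair of type I and type II receptors at the cell surface. BMPR1A and BMPR1B are type I receptors, and the active receptor phosphorylates SMAD1 and its close relatives, which enter the nucleus with SMAD4. TGFBR2 is the type II receptor for the TGF-beta ligands and works with TGFBR1 through SMAD2 and SMAD3. In the ovary these signals pass between oocyte, granulosa and theca cells and restrain luteinisation, and BMPR1B is known as a fecundity gene in sheep.

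The 5 genes fell into 2 kinds. BMP6, SMAD1 and TGFBR2 each had 1 circRNA that was listed in all 6 libraries. These 3 circRNAs held 200 of the 265 reads (75.5%). BMPR1A and BMPR1B had more circRNAs, 4 and 7, each with few reads and none listed in more than 3 libraries. Of the 18 circRNAs, 10 (55.6%) were listed in 1 library, 4 in 2 libraries and 1 in 3 libraries. Over all 13950 circRNAs, 59.3% were listed in 1 library. By breed, 7 circRNAs with 26 reads were listed in Boer alone, 6 with 21 reads in Macheng black alone, and 5 with 218 reads in both. A circRNA listed in 1 library falls in 1 breed by necessity. The same count by breed is not given here for all circRNAs, so it is not read as a trait of these genes. The plot of reads by circRNA and library shows this split, with letters that follow the position on the chromosome.

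**Figure D1:**
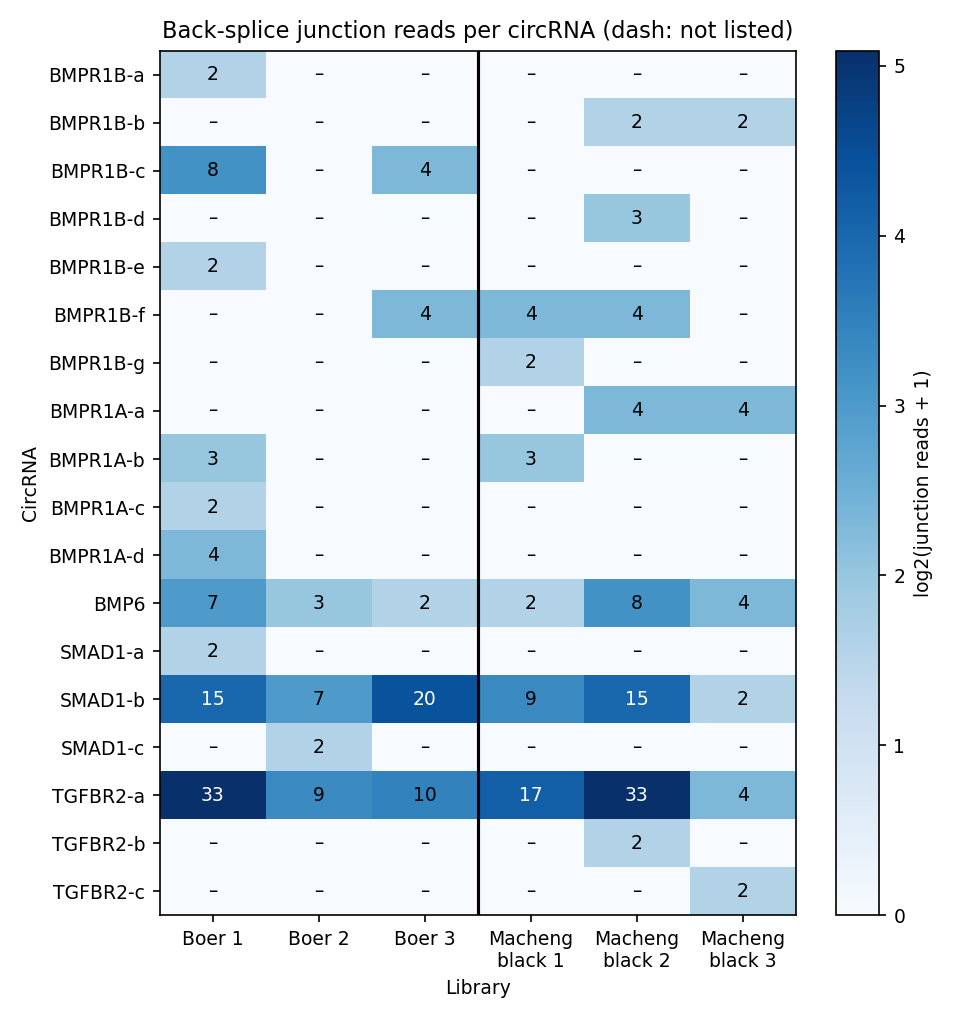
Back-splice junction reads of the 18 circRNAs (rows) in the 6 libraries (columns), with the number of reads in each cell, a dash where the circRNA was not listed, and the colour on a log2(reads + 1) scale. BMP6, SMAD1-b and TGFBR2-a have reads in all 6 columns, and the BMPR1A and BMPR1B rows are mostly dashes.

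The ligand gene BMP6 had a single circRNA, on the minus strand of chromosome 23 from 44688299 to 44691392. It spans 3094 bases with 1 listed exon of 193 bases, 1 listed intron of 2767 bases, and 134 bases at its upstream end that are listed as neither. In Boer 2 the same circRNA was listed with the intron only, and the deposited spliced length was then 2767 bases, that of the intron. Junction reads were 7, 3 and 2 in Boer 1, 2 and 3 and 2, 8 and 4 in Macheng black 1, 2 and 3. The lowest libraries of both breeds had the same number of reads, and the breeds overlapped. At 26 reads in all, BMP6 ranked 244 of 783 host genes.

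BMPR1B, on the minus strand of chromosome 6, had 7 circRNAs that overlap or adjoin one another. BMPR1B-c, from 27642411 to 27675248, runs from an exon of 160 bases to one of 298 bases. It covers 3 listed exons and 4 unlisted stretches of 97 to 139 bases between listed introns. It had 8 reads in Boer 1 and 4 in Boer 3 and was not listed elsewhere. BMPR1B-f, from 27675089 to 27708442, had 4 reads each in Boer 3, Macheng black 1 and Macheng black 2, and was the only circRNA of this gene listed in 3 libraries. These 2 circRNAs had 12 reads each, so that no form led the gene: each held 32.4% of its 37 reads.

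The other 5 BMPR1B circRNAs had 2 to 4 reads. BMPR1B-b (27642411 to 27651895) had 2 reads in each of Macheng black 2 and 3. BMPR1B-d (27650340 to 27675248) had 3 reads in Macheng black 2. BMPR1B-a (27631144 to 27642708) and BMPR1B-e (27662265 to 27675248) had 2 reads each in Boer 1. BMPR1B-g (27701719 to 27708442), with 2 reads in Macheng black 1, lies wholly inside a listed intron of 114962 bases and was the only one of the 18 circRNAs with no listed exon.

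The BMPR1B circRNAs reused a few sites. The upstream edge of the exon of 160 bases was the upstream end of 3 circRNAs (c, d and e), while the downstream edge of the same exon was the downstream end of BMPR1B-f. In the same way, the exon of 298 bases closed BMPR1B-b and BMPR1B-c and opened BMPR1B-a. BMPR1B-f and BMPR1B-g shared their upstream end at 27708442, a position inside the listed intron of 114962 bases and not at the edge of any listed part. Summed over its circRNAs, BMPR1B had 12, 0 and 8 reads in Boer 1, 2 and 3 and 6, 9 and 2 in Macheng black 1, 2 and 3. Boer 2 was the single library with none, and the breeds overlapped.

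BMPR1A, the paralogous receptor gene on the plus strand of chromosome 28, had 4 circRNAs and 20 reads. BMPR1A-a, from 38990795 to 39023925, had the most, with 4 reads in each of Macheng black 2 and 3. BMPR1A-b, from 39017487 to 39023925, shares its downstream end and had 3 reads in each of Boer 1 and Macheng black 1. BMPR1A-c (39017487 to 39030186) and BMPR1A-d (39038852 to 39041756) had 2 and 4 reads, both in Boer 1 alone. Summed, the gene had 9 reads in Boer 1, none in Boer 2 and 3, and 3, 4 and 4 reads in Macheng black 1, 2 and 3. The absence of BMPR1A from the other 2 Boer libraries rests on the listing minimum, since 1 read would not have been listed.

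Some listed exons and unlisted stretches of the paralogs matched in length and order. Those of 220 and 163 bases in BMPR1A and of 160, 98, 139 and 176 bases in BMPR1B had no match. Along transcription, BMPR1B had parts of 103 and 97 bases next to each other and further on exons of 193 and 298 bases next to each other, and BMPR1A had the same 4 lengths in the same order. BMPR1A-d consists of the exons of 193 and 298 bases with the intron of 2414 bases between them. The exons of those lengths in BMPR1B are the last parts of BMPR1B-b and BMPR1B-c. The part of 103 bases was the last of BMPR1A-a and BMPR1A-b and the last of BMPR1B-e. Each of these circRNAs was listed in at most 2 libraries, and the match is one of length alone.

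**Figure D2:**
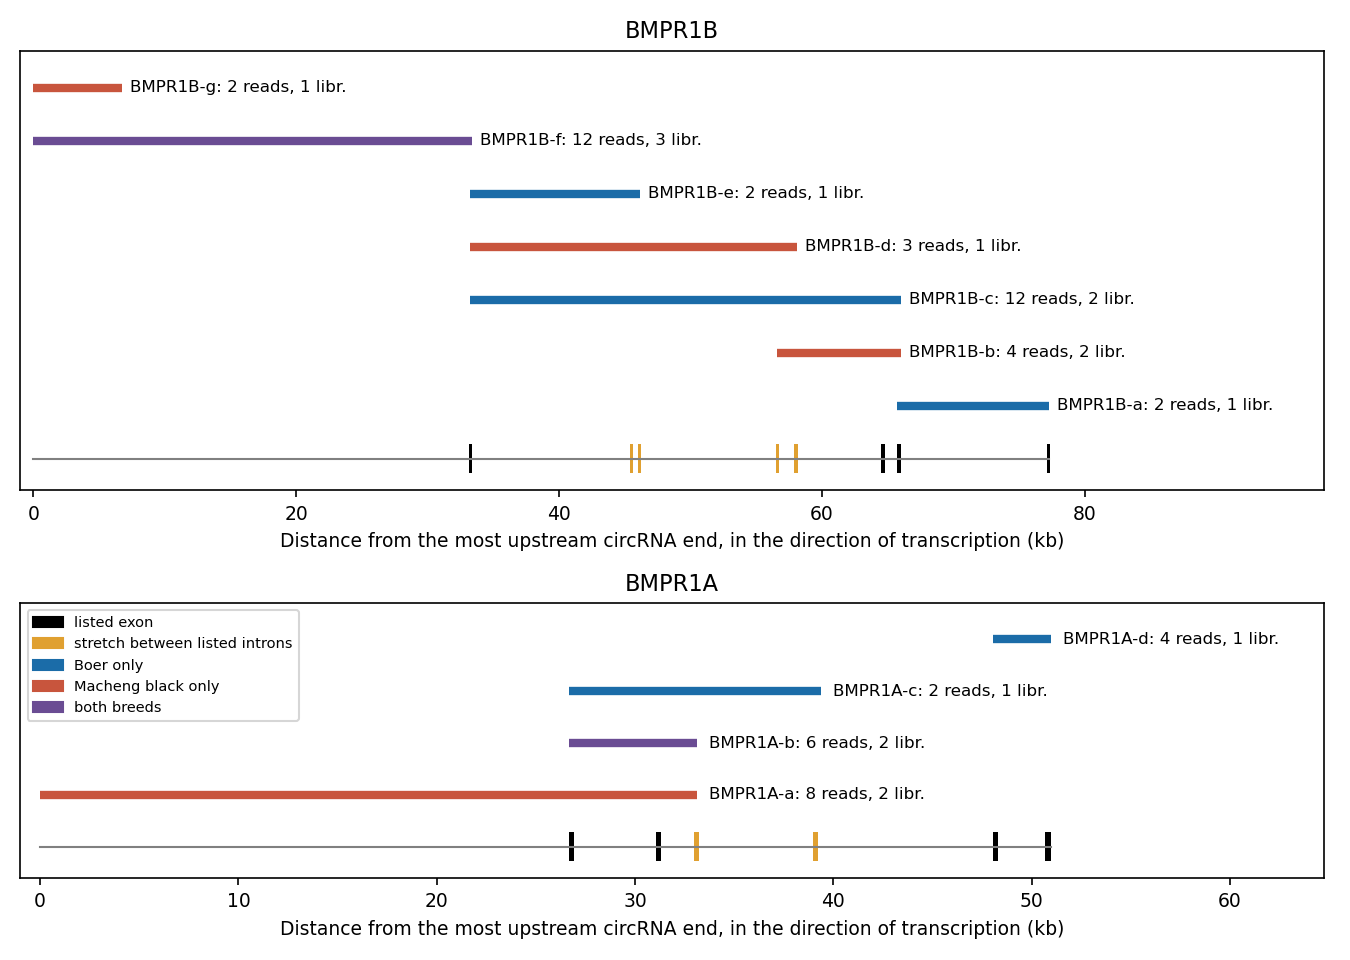
Extent of the BMPR1B (top) and BMPR1A (bottom) circRNAs as bars, against the distance in kb from the most upstream circRNA end in the direction of transcription. Bars are coloured by the breed in which the circRNA was listed and carry the reads and libraries, and boxes below mark listed exons and unlisted stretches between listed introns, drawn wider than scale where short. Several BMPR1B bars start or stop at the same 2 exons, of 160 and 298 bases.

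TGFBR2, on the plus strand of chromosome 22, had the most reads of the 5 genes (110, ranked 85 of 783 host genes). TGFBR2-a, from 5057142 to 5061803, consists of exons of 169 and 191 bases and the intron of 4302 bases between them, and both of its ends lie at listed exon edges. It had 33, 9 and 10 reads in Boer 1, 2 and 3 and 17, 33 and 4 in Macheng black 1, 2 and 3. The highest count, 33, was reached in both breeds, but Boer 1 held 74796 junction reads in all and Macheng black 2 held 49141. Relative to depth, Macheng black 2 was therefore the higher of this pair. The lowest library was Macheng black 3, which also had the fewest junction reads in all. With 106 reads it held 96.4% of the gene's reads and ranked 389 among all 13950 circRNAs. TGFBR2-b (5084645 to 5087411), with a listed exon of 800 bases, had 2 reads in Macheng black 2. TGFBR2-c (5108446 to 5108797) had 2 reads in Macheng black 3 and lies inside a listed exon of 2492 bases, with neither end at an exon edge.

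SMAD1, on the minus strand of chromosome 17, encodes the transcription factor that carries the BMP signal. SMAD1-b, from 12545531 to 12546100, is 570 bases long without a listed intron. It holds an exon of 475 bases, and its upstream end lies 95 bases past the listed edge of that exon. It had 15, 7 and 20 reads in Boer 1, 2 and 3 and 9, 15 and 2 in Macheng black 1, 2 and 3, which is 94.4% of the gene's 72 reads. Macheng black 3 was again the lowest library, and the other 2 Macheng black libraries lay within the Boer range.

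SMAD1-c (12545531 to 12546536) shares the downstream end of SMAD1-b, ends 531 bases past the exon and had 2 reads in Boer 2. SMAD1-a (12515858 to 12519000), with a listed exon of 258 bases, had 2 reads in Boer 1.

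Over the 18 circRNAs, 24 of 36 ends lay at the edge of a listed exon or intron, and 8 circRNAs had both ends there. Of the other ends, 7 lay outside the listed parts, 3 inside a listed intron and 2 inside a listed exon. The shortest exon listed anywhere in the 6 tables has 150 bases, so shorter exons do not appear in the annotation, and the unlisted stretches of 97 to 139 bases between introns of BMPR1A and BMPR1B are all below that length. Counts of exons taken from these tables are therefore lower bounds. The outside ends of BMPR1A-a, BMPR1A-c, BMP6, SMAD1-a and TGFBR2-b each close an unlisted stretch of 100 to 142 bases beside a listed intron, also below that length. Whether these ends lie at edges of short unlisted exons cannot be told here, so the 24 ends at listed edges may be too few. If all listed introns were removed, TGFBR2-a would be 360, BMP6 327, SMAD1-b 570 and BMPR1B-c 1088 bases long; whether introns are kept was not measured.

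Beside the other 2026 circRNAs with a usable host gene, the 18 had a similar span (median 6582 against 6522 bases) and read number (median 3.5 against 4 reads over all libraries). A listed exon was present in 17 of 18 (94.4%) against 69.8%, and 3 of 18 (16.7%) against 9.87% were listed in all 6 libraries. The share listed in 1 library was similar, with 10 of 18 (55.6%) against 55.8%. Many of the 18 share an end with another (11 of 18), so they are not independent, and no test was made of these shares.

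The comparison of the breeds asks which circRNAs of these follicles differ between Boer and Macheng black goats. None of the 5 genes passed it. The fitted level was lower in Boer for BMP6, BMPR1A, TGFBR2 and BMPR1B (for BMPR1B not without Boer 2 or Macheng black 2) and higher for SMAD1. In each gene the libraries of the breeds overlapped, where Boer lay wholly above in 6.68% and Macheng black wholly above in 4.84% of all tested host genes. The test was edgeR's quasi-likelihood test with Benjamini-Hochberg adjustment over all 434 tested host genes, of which 5 passed (1.15%). Gene levels are given as CPM, counts scaled to 1000000 junction reads of host genes after TMM normalization, on which 1 read was worth between 82.4 and 242 CPM.

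SMAD1 had a mean of 2039 ± 679 CPM over the Boer and 1260 ± 696 over the Macheng black libraries (SD over n = 3), a log2 fold change of Boer over Macheng black of 0.59 ± 0.56 (SE). TGFBR2 averaged 2020 ± 674 and 2830 ± 1409 CPM (SD over n = 3), a log2 fold change of -0.50 ± 0.46 (SE). For this pair, 2 SE on either side allow log2 fold changes from -0.53 to 1.72 and from -1.43 to 0.42. The differences were thus about as large as their standard errors, and changes of either sign remain within 2 SE.

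BMP6 averaged 502 ± 200 and 756 ± 372 CPM (SD, n = 3 each), with a log2 fold change of -0.58 ± 1.20 (SE). BMPR1B averaged 697 ± 606 and 853 ± 325 CPM (-0.22 ± 0.95, SE), and BMPR1A 247 ± 428 and 648 ± 276 CPM (-1.09 ± 1.49, SE; SD over n = 3 each). All 5 genes had an edgeR adjusted p of 0.963. Without Boer 2, the library with no BMPR1B read, the log2 fold change of BMPR1B turned to 0.23, and without Macheng black 2 to 0.0064. BMPR1A rests on Boer 1 for all its Boer reads.

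**Figure D3:**
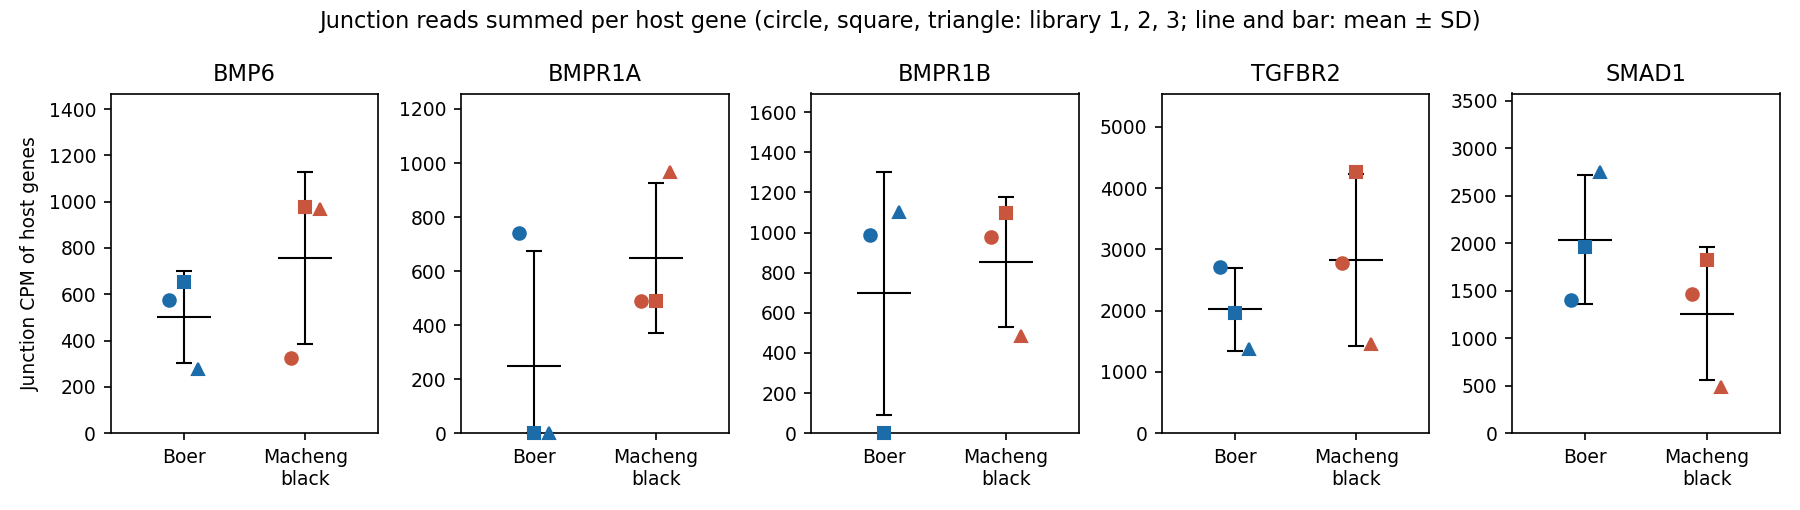
Junction reads summed per host gene, in CPM of host gene reads (y axis from 0, a scale per gene), by breed, with 1 symbol per library and the mean ± SD of 3 libraries, lower bars stopping at 0. The 2 breeds overlap in all 5 genes, and SMAD1 alone has its higher mean in Boer.

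Of the 18 circRNAs, 4 had at least 2 reads in at least 3 libraries and entered the test of single circRNAs. None of the 4 was among the 13 of 3712 that passed (0.35%), and in none did the breeds separate, as they did with Boer above in 6.92% and with Macheng black above in 4.8% of those tested. On the CPM scale of all junction reads, TGFBR2-a had a mean of 351 ± 143 over the Boer and 449 ± 285 over the Macheng black libraries (SD over n = 3), with a log2 fold change of -0.37 ± 0.50 (SE). SMAD1-b averaged 313 ± 134 and 218 ± 129 CPM (0.45 ± 0.59), BMP6 85.9 ± 34.0 and 128 ± 63.2 CPM (-0.56 ± 1.14) and BMPR1B-f 31.2 ± 54.0 and 66.4 ± 58.7 CPM (-1.06 ± 1.74; SD, n = 3 each, and SE). All 4 had an edgeR adjusted p of 0.9998. Without Macheng black 2 the value of TGFBR2-a turned to 0.16. These log2 fold changes moved with single libraries: that of SMAD1-b was 0.091 without Boer 3 and 0.91 without Macheng black 2, and that of BMP6 was -0.22 without Macheng black 2 and -0.91 without Macheng black 1. Without Boer 3, its only Boer library with reads, BMPR1B-f had Boer at 0 and a fitted value that is no bound; without Boer 1 its value was -0.45.

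The circRNAs listed in several libraries of 1 breed alone were too sparse for the filter. BMPR1B-c was listed in 2 Boer libraries, and BMPR1B-b and BMPR1A-a in 2 Macheng black libraries each. With no filter on low counts, BMPR1A-a and BMPR1B-c had unadjusted p-values of 0.067 and 0.069 and an edgeR adjusted p of 0.451 each, and no member passed.

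The share of all junction reads held by the 5 genes was 0.104%, 0.0844% and 0.0963% in Boer 1, 2 and 3 and 0.0948%, 0.144% and 0.0767% in Macheng black 1, 2 and 3. The means, 0.0950% ± 0.0100 and 0.105% ± 0.0351 (SD over n = 3), differed by less than the spread of the Macheng black libraries (exact permutation test, two-sided, p = 0.9, where 3 against 3 cannot give less than 0.1). The number of member circRNAs listed was 10, 4 and 5 in the Boer and 6, 8 and 6 in the Macheng black libraries (exact permutation test, two-sided, p = 1.0). Boer 1, the deepest library, had the most. After thinning every library to 23480 junction reads, the numbers averaged 4.13 ± 0.362 and 5.17 ± 0.802 (SD over n = 3), with p = 0.2 by the same exact test.

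The tables also count reads called non-junction for each circRNA. In all 9656 cases where a circRNA lies inside another of the same library and strand, the outer one had at least as many such reads. The number is therefore read here as a count over the whole span, and it is compared for the same circRNA between libraries. BMPR1B-f had between 1931 and 3091 non-junction reads over its 33354 bases, and BMPR1A-a had 1962 and 2400 over 33131 bases. BMPR1A-d, at 2905 bases near the length of the BMP6 circRNA, had 362 in Boer 1, where BMP6 had 16.

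For TGFBR2-a, non-junction reads were 69, 75 and 79 in Boer 1, 2 and 3 and 122, 162 and 116 in Macheng black 1, 2 and 3. Scaled to the non-junction reads of circRNAs listed in all 6 libraries, these were 112 ± 8.57 CPM for the Boer and 190 ± 53.1 CPM for the Macheng black libraries (SD over n = 3). Each Macheng black library lay above each Boer library, as in 5.18% of the 1119 circRNAs tested, with the opposite order in 3.93%. The log2 fold change of -0.76 ± 0.26 (SE) had an unadjusted p of 0.0174 and an adjusted p of 0.804 in edgeR's quasi-likelihood test, and so did not pass. Its junction reads, by contrast, overlapped between the breeds.

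For BMP6, non-junction reads were 16, 14 and 22 in the Boer and 37, 30 and 23 in the Macheng black libraries. Scaled, they were 26.4 ± 7.04 and 42.9 ± 13.0 CPM (SD, n = 3 each), with Macheng black 3 below Boer 3 (edgeR adjusted p = 0.881). For SMAD1-b they were 124, 138 and 164 and 182, 174 and 107, or 214 ± 30.2 and 222 ± 76.9 CPM (SD over n = 3), with an edgeR adjusted p of 0.995. In this test none of the 1119 circRNAs passed (0%); 67 had an unadjusted p under 0.05, and DESeq2 called 4, none of them a member. SMAD1-c had 138 non-junction reads in Boer 2, the same number as the shorter SMAD1-b there, although it spans 1006 bases and SMAD1-b 570.

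**Figure D4:**
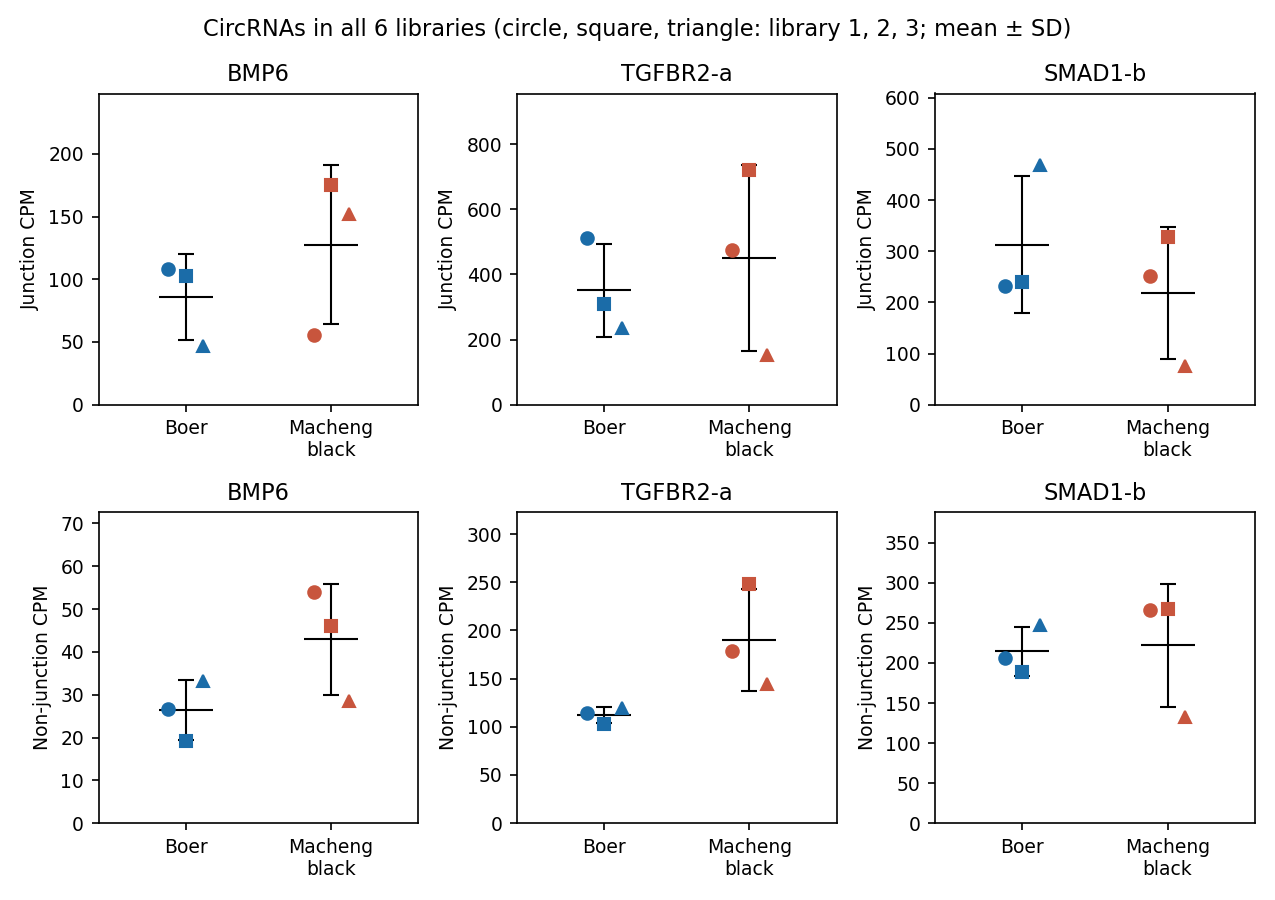
Junction CPM (top) and non-junction CPM (bottom, on its own scale) of the 3 circRNAs listed in all 6 libraries, by breed, with 1 symbol per library and the mean ± SD of 3 libraries. The breeds overlap in the 3 upper panels, and in the lower ones the Macheng black libraries stand above all Boer libraries for TGFBR2-a alone.

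As an index, called share below, junction reads were taken with a weight of 2 over the same plus non-junction reads. The weight was set for non-junction reads at the ends of a circRNA, but these are read here as a count over the span. The index is therefore not a fraction of reads or molecules. Over all libraries this share was 26.8% for BMP6, 25.4% for TGFBR2-a and 13.3% for SMAD1-b, against a median of 9.21% (quartiles 3.74% and 23.4%) over the 1132 circRNAs listed in all 6 libraries. For each BMPR1B circRNA it was between 0.320% and 0.576%, and for BMPR1A between 0.334% and 2.16%. Because the span counts towards the denominator, the shares of long and short circRNAs are not comparable. The median is over circRNAs not matched for span, so it is given as a description only.

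Within TGFBR2-a the share was 48.9%, 19.4% and 20.2% in the Boer and 21.8%, 28.9% and 6.45% in the Macheng black libraries. Boer 1 stood highest, and the other 2 Boer libraries lay within the Macheng black range (exact permutation test, two-sided, p = 0.6). For SMAD1-b the shares were 19.5%, 9.21% and 19.6% against 9%, 14.7% and 3.60% (p = 0.2, exact permutation test), and for BMP6 46.7%, 30% and 15.4% against 9.76%, 34.8% and 25.8% (p = 0.5, exact permutation test). Summed over each gene, BMPR1A had a share in 1 and BMPR1B in 2 of the 3 Boer libraries, so BMPR1A allows no comparison with a Boer spread. For BMP6, SMAD1 and TGFBR2, with 3 libraries of each breed, the exact permutation p-values were 0.5, 0.5 and 0.3, each 0.625 after adjustment over the 5 genes. The adjustment took in BMPR1A and BMPR1B, whose fewer Boer values cannot give a p as low as 3 against 3 can. The sum counts non-junction reads of overlapping circRNAs more than once, as for SMAD1 in Boer 2. It also takes in a sparse circRNA only where that is listed. TGFBR2-b, with 2 junction and 594 non-junction reads, puts the summed TGFBR2 share of Macheng black 2 at 8.47%, against 28.9% for TGFBR2-a there.

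Other genes of the pathway were looked up in a list of 71 ligands, receptors, SMADs, inhibitors, partners and targets. Only the 5 genes described here were usable host genes: 1 of 18 ligands, 3 of 16 receptors and 1 of 8 SMADs, and none of 15 inhibitors, 6 partners and 8 targets. The 5 genes and the list were chosen with earlier results of these data known, so that these genes are hosts is no finding. Since 14.7% of all circRNAs had a usable host gene, the lookup does not show that the other listed genes make no circRNA. The fits of the 5 are those given above and are no separate result for the pathway. None passed in either direction, and 4 had a negative and 1 a positive log2 fold change. Their median was -0.50, against 0.068 over all 434 tested host genes. Of those 434, 231 had a positive and 203 a negative log2 fold change, and 5 passed.

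The host genes whose levels followed those of the 5 most closely over the 6 libraries were themselves sparse. Pearson's r was taken over 6 libraries on log2 CPM. CPM is scaled to depth, but for all genes 1 read was worth more CPM in shallow libraries. The closest were FARS2 (0.94) and PHF3 (0.92) for BMPR1B, KDSR (0.98) and LDB2 (0.96) for BMPR1A, and USP38 (0.96) and LOC102179380 (0.96) for BMP6. For SMAD1 they were MARCH8 (0.98) and PSMB1 (0.92), and for TGFBR2 SNAP91 (0.95) and GATAD2A (0.94). These 10 genes had between 9 and 68 junction reads in all. Each pair was picked as the 2 highest r among the 434 tested host genes, so such values are high by selection and serve as a description only.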

How the data were processed

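The authors deposited 1 table per library with raw counts of back-splice junction reads and of non-junction reads per circRNA, per the file headers; the deposited lengths (spliced, full) are of another unit, bases. The submitters' processing notes name Bowtie2 2.0.6 and TopHat2. For the circRNA caller, build and annotation, a name is not given in the sources used here. Full length equalled end minus start in all 28870 entries, so 1 was added to starts. A circRNA not listed in a library entered tests as 0. Of 829 host identifiers, 29 on several chromosomes or with a listed part over 1000000 bases were set aside, and a circRNA was given a host gene only where exactly 1 of the others was listed for it. A further 17 identifiers were never the single one, which left 783 host genes. Of these, 754 had a symbol in the ARS1.2 table, used for names only.

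A circRNA or host gene entered the test if 3 or more libraries had 2 or more of its reads. The test was edgeR 4.0.16 (quasi-likelihood, TMM, Benjamini-Hochberg at 0.05) in R 4.3.3, on all 6 libraries without a block; DESeq2 1.42.0 was an alternative. Dividing the log2 fold change by the square root of F gave the SE. Non-junction reads of circRNAs listed in all 6 libraries were tested likewise, a test added after the data were seen. Exact permutation tests compared per-library values, and thinning was averaged over 20 draws. On simulated counts, 50.7% of 4-fold and 96.1% of 16-fold changes of host genes, and 5.81% and 61.4% of those of circRNAs, were recovered. The simulation changed 144 of 434 host genes and 200 of 3712 circRNAs, drawn at any read number, with 1 common dispersion. Many more host genes were thus changed than passed in the data. The rates therefore do not give the recovery to be had for the members. Members, lists and tests were chosen with earlier results of these data known. The rule for named items covered the 5 genes, the most-read circRNA of each, those listed in at least 3 libraries or in all libraries of 1 breed, listed pathway genes and the 2 closest host genes of each; the remaining circRNAs were named after their values were seen.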

Additional observations from a re-analysis of the deposited data

How the results depend on the processing

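No member gene or circRNA passed under any alternative that tested it (lowest adjusted p 0.451, for circRNAs with no filter), and of 53 alternative log2 fold changes of the genes 51 kept their direction. Reversed were BMPR1B without Boer 2 (0.23) and Macheng black 2 (0.0064), TGFBR2-a without Macheng black 2 (0.16), and the non-junction reads of SMAD1-b with the replicate block (0.0021) and with Boer 2 (0.053), Macheng black 1 (0.11) or Macheng black 2 (0.095) left out. With single libraries left out, log2 fold changes ran from -0.59 to 0.23 for BMPR1B, -4.97 to -0.56 for BMPR1A (the lowest without Boer 1, when all Boer libraries are at 0), -0.94 to -0.26 for BMP6, 0.26 to 0.99 for SMAD1 and -0.81 to -0.040 for TGFBR2; for TGFBR2-a they ran from -0.79 to 0.16, for SMAD1-b from 0.091 to 0.91, for the BMP6 circRNA from -0.91 to -0.22, and for non-junction reads of SMAD1-b from -0.31 to 0.11. The difference in the share of junction reads (percentage points) ran from -0.0247 to 0.00925, that in listed circRNAs from -2.17 to 0.833, and those in junction read share from -0.116 to 0.256 for BMPR1B and -0.756 to 14.9 for BMP6. The 13 calls among circRNAs became 8 with DESeq2, 35 with no filter, 2 when 5 reads were asked for in 3 libraries, and 1 (without Boer 2) to 21 (without Macheng black 1) with a library left out, 4 without Boer 1. The 5 host gene calls became 1 with DESeq2, 3 with no filter, 0 with at least 5 reads (22 at an unadjusted p under 0.05), 0 with the replicate block (22), and 1 to 4 with a library left out (1 when Boer 2, Macheng black 1 or Macheng black 3 was left out, 2 without Boer 3, 3 without Macheng black 2). Calls on non-junction reads went from 0 to 4 with DESeq2 and to between 0 and 2 with a library left out, the 2 without Macheng black 1. Same-numbered libraries did not deviate together (correlations from -0.039 to 0.012 over circRNAs), so the block rests on a shared number only. Over non-junction reads, same-numbered libraries had correlations of -0.124, -0.093 and -0.054. There Boer 1 with Macheng black 2 had 0.376, Boer 2 with Macheng black 3 had 0.318 and Boer 3 with Macheng black 1 had 0.287. The remaining pairs were negative, and no source of this pattern was tested. With the replicate block the number of circRNA calls was 11. The cause of these changes was not tested. Depth limits the members: 1 read was worth up to 38.1 CPM of all junction reads. Of the 18 circRNAs, 10 (55.6%) were listed in a single library, against 55.8% of the other circRNAs with a usable host gene.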

Other observations

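The part lists of 1 and the same circRNA were not always the same. Of 5681 circRNAs listed in at least 2 libraries, 208 (3.66%) had different exon and intron parts in different libraries, and BMP6 was the one such case among the members, with its exon of 193 bases missing in Boer 2. A class such as exonic or intronic taken from a single table would differ for these circRNAs.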
